A study of Homo sapiens with 6 samples.

Results

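A cell that divides must condense its chromosomes, attach each sister pair to a spindle of microtubules and split the cell, and a dedicated set of genes serves these steps. In the data described here, the set consists of 38 genes chosen by function: mitotic kinases and cyclin B, the chromosomal passenger complex, centromere and kinetochore proteins, spindle checkpoint proteins, the anaphase machinery, spindle motors, cytokinesis proteins, and the 2 chromosome proteins TOP2A and MKI67. The rule took the rows of the deposited count table that carry these gene names, and all 38 were found among its 31762 genes. No member name occurs more than once in the table, and all 38 passed the filter on low counts that left 15646 genes for testing. The members were listed by role and not by their values, although earlier results of these data were known when the list was made.

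The samples were H460 cells, a human lung carcinoma line with the genotype given as WT. The question was how the transcriptome differs between cells exposed to 20 µM fluoxetine, a serotonin reuptake inhibitor used as an antidepressant, for 24 h and control cells. Each group had 3 libraries, and the controls are given only as control, without a named vehicle. Nothing in the labels says that the 3 libraries of a group came from separate cultures, so the p-values measure the spread between these libraries, which may be technical.

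As background, transcription of most of these genes is switched off in G1 and rises through G2 into mitosis. The B-type cyclins bind the kinase CDK1 and start mitosis, Aurora and Polo-like kinases shape the spindle, and the spindle checkpoint holds back CDC20 and with it the anaphase promoting complex, the ubiquitin ligase that destroys cyclin B and securin, until all kinetochores are attached. Many promoters of this class carry a short element near the start site, the CHR, with the letters TTTGAA, together with CCAAT boxes. The CHR is bound by the DREAM complex in resting cells and by the MYBL2 and FOXM1 forms of the same complex in dividing cells. In a bulk RNA sample, fewer cells in G2 and mitosis and less RNA of these genes per cell cannot be told apart.

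To show these elements, windows of 300 bases around the gene starts, 250 before and 50 after, were taken from RefSeq (GRCh38.p14), and 32 of the 38 members had a window. AURKA, BIRC5, BUB3, TPX2, TTK and UBE2C had none. TTTGAA, searched on both strands, was present in 24 of the 32 members (75%), against 13.9% of the 10195 tested genes with a window. CCAAT, also on both strands, was present in 26 members (81.2%), against 42.9%. Over all 35116 RefSeq windows the shares were 15.2% and 34.6%. Both were present in 20 members (62.5%), against 5.69% of the tested genes. A gene with several start sites was counted when any of its windows held the letters. TTTGAA read in the direction of the gene and starting 10 to 70 bases upstream of the start was found in 15 of the 32 members (46.9%) and in 1.65% of the tested genes, and this range was chosen after the positions were seen. Among members with a window, TTTGAA was in 11 of the 17 called lower with fluoxetine and in 13 of the 15 not called. The letters were thus no more frequent in those called lower. Apart from ASPM, the members not called also had log2 fold changes below 0, so this does not compare genes that fell with genes that did not. These are matches of letters and no measurement of binding.

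The windows below are written 5′ to 3′ in the direction of the gene, with each TTTGAA and CCAAT of either strand in capitals (TTCAAA and ATTGG are their reverse forms). CCNB2, PLK1 and CDC20 are shown because they were lower with fluoxetine and hold both elements. MKI67 is shown because it holds both elements and did not pass the test, and KIF2C because it was called lower and holds neither.
CCNB2, chr15:59104896-59105195, plus strand: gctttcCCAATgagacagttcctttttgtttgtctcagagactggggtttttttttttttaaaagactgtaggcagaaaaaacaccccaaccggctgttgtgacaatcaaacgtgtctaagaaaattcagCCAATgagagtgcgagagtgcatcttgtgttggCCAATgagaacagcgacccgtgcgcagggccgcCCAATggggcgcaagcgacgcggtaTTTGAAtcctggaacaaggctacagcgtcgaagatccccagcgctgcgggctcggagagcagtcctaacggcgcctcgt
PLK1, chr16:23678639-23678938, plus strand: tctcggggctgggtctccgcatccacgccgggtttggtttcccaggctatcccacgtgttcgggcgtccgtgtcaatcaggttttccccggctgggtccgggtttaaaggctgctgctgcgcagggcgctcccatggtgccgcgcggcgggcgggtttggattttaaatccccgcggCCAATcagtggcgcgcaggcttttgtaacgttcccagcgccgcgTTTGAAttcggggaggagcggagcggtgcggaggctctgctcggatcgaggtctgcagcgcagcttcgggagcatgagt
CDC20, chr1:43358731-43359030, plus strand: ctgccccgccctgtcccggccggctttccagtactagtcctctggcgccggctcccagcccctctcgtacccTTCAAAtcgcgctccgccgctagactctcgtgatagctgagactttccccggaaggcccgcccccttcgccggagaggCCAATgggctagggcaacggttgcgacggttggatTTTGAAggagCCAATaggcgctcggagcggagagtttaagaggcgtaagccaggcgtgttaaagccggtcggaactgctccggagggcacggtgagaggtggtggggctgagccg
MKI67, chr10:128126374-128126673, minus strand: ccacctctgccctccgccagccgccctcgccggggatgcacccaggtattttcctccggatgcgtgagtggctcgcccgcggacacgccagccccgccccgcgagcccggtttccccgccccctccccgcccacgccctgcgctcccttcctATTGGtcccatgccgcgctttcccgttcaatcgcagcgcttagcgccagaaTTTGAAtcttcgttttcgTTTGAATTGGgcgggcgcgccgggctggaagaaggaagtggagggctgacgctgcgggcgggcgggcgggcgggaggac
KIF2C, chr1:44739587-44739886, plus strand: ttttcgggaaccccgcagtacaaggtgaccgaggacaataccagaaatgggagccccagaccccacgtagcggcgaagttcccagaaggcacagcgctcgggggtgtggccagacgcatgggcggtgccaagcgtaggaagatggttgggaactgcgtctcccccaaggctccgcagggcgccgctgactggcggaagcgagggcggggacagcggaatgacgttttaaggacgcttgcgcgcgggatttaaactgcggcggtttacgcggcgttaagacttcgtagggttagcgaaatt
In CCNB2 and PLK1 the TTTGAA started 29 bases upstream of the gene start, with the nearest CCAAT at 54 and 73 bases. CDC20 held it 65 bases upstream, and a further one in reverse at 178. MKI67 had it at 47 and at 29 bases, and the latter shares its last base with a reversed CCAAT.

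The total count per library was 19343565 to 27823667 in the control group and 16157507 to 17113538 in the fluoxetine group, so that every fluoxetine library was shallower than every control library. Levels are given as CPM, the count relative to the TMM-scaled library total. A count of 3, the limit that a count of 0 allows, was worth 0.108 to 0.182 CPM, and it covers counting error only. No member had fewer than 249 counts in any library. The share of mitochondrial transcripts was 8.47% to 8.89% in control and 8.13% to 8.81% after fluoxetine. KRT8, KRT18 and KRT19, keratins of epithelial cells, were high, EPCAM was at 0.414 CPM and CDH1 at 0 CPM in control cells. Among the markers of other cells, PTPRC of blood was at 0.0588 CPM and PECAM1 of endothelium at 0 CPM in control cells, and CD3E and CDH5 are not among the rows used here. The summed fibroblast markers were 8.54 to 10.1 CPM in control and 12.1 to 13.5 CPM in fluoxetine libraries (LUM alone was higher, log2 fold change 0.88, with COL1A1 at -0.17 and not called, and the defining marker DCN at 0.0582 to 0.417 CPM), and their part in the results was not tested. Rows that share a gene name carry identical counts, which concerned 126 names and 1643 rows, 758 of them Y_RNA, but no member.

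The mitosis genes were lower after fluoxetine, moderately and unevenly. Of the 38 members, 37 had a log2 fold change below 0, beside 45.8% of all tested genes. At an adjusted p under 0.05 from edgeR's quasi-likelihood test, 21 members were lower and 0 were higher. The background share of genes called lower in the same fit was 5.32% and the share called higher 7.76%, against 55.3% and 0% of the members. With 1 row per gene name these shares were 6.52% and 8.32%, and 21 members were lower. None of the 38 reached a fold change of 2, which 0.147% of the tested genes did in the lower and 1.25% in the higher direction among those called. The largest change was that of CDC20, which fell to 54.5% of its control level. The median log2 fold change of the members was -0.30, that is 81.4% of control, beside a median of 0.03 over all tested genes. With 1 row per gene name these medians were -0.30 and 0.01. At an unadjusted p under 0.05 the number of members was 27. In 26 members all 3 fluoxetine libraries lay below all 3 control libraries, which held for 14.4% of all tested genes. With 3 libraries against 3, an exact permutation test of a single value cannot go below p = 0.1.

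The count of 21 rested in part on fluoxetine replicate 1. Without it, 8 members were called, against a background of 1.01% called lower. The count was 15 without fluoxetine replicate 3 (background 2.01%), 17 without control replicate 2 (2.75%) and 18 without control replicate 1 (3.48%). It was 22 both without fluoxetine replicate 2 (6.96%) and without control replicate 3 (12.7%). Thus the share of all genes called lower moved with the count of members. NEK2, NDC80, NUF2, SPC25 and KIF2C were called in 3 of these 6 fits, the lowest number among the 21. The median log2 fold change of the members lay between -0.36 and -0.31 in all 6. In those 6 fits the median of all tested genes was -0.01 to 0.01 rather than 0.03, so that fold changes there sat slightly lower across genes. At the stricter adjusted p under 0.01, with all libraries, 9 members were called, against 1.30% of all tested genes called lower.

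Together, the 38 genes took 0.667%, 0.685% and 0.728% of all counts in the control libraries (replicates 1, 2 and 3) and 0.589%, 0.551% and 0.601% in the treated ones. Their summed level was thus 6781, 6900 and 7298 CPM in the control libraries and 5775, 5532 and 5990 CPM in the fluoxetine libraries. The groups do not overlap. In the plot of fold changes by role, the intervals of the called members lie wholly below 0, and the lowest one, that of CDC20, reaches past a 2-fold fall.

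**Figure D1:**
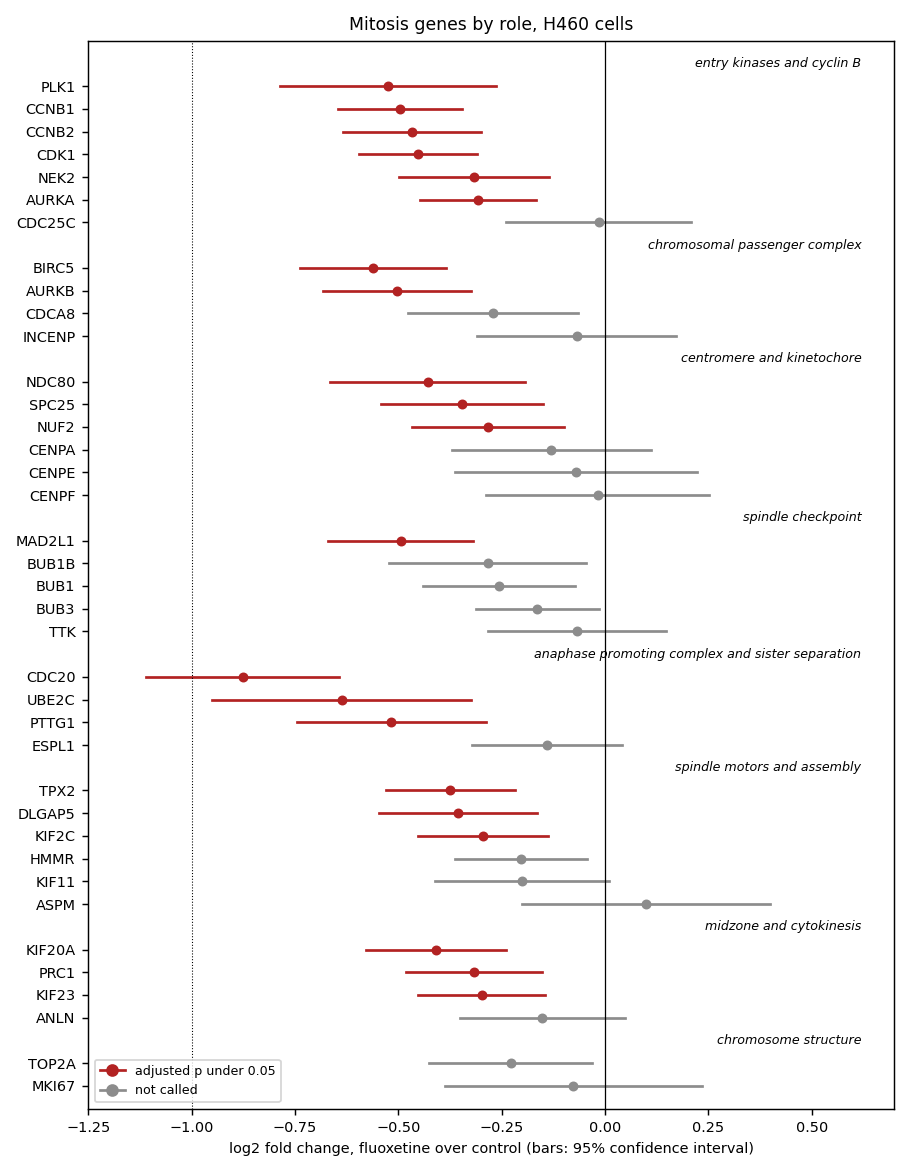
Log2 fold change of fluoxetine over control for the 38 members, grouped by role (vertical), with 95% confidence intervals as bars; red marks an adjusted p under 0.05 from edgeR and gray the members not called, and the dotted line marks a 2-fold fall. The points run from -0.88 for CDC20 to 0.10 for ASPM, and 21 of the 38 are red.

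Among the kinases and cyclins that start mitosis, 6 of 7 members were lower. CCNB1 encodes cyclin B1, the main activator of CDK1. CCNB1 (ENSG00000134057, chromosome 5, 69167010 to 69178245, plus strand) had 349.6, 334 and 341 CPM in the control libraries and 233, 255 and 238 CPM in the fluoxetine libraries, where values always follow the order of replicates 1, 2 and 3. All fluoxetine libraries were below all control libraries. The log2 fold change of CCNB1 was -0.50 (standard error 0.07, edgeR adjusted p = 0.00143). CDK1, its partner kinase, had 264, 267 and 270 CPM in control against 190.4, 202 and 193 CPM with fluoxetine. Here too the groups were apart, with a log2 fold change of -0.45 (standard error 0.06, edgeR adjusted p = 0.00185). CCNB2, the other main B-type cyclin, changed by -0.47 on the log2 scale (standard error 0.08, edgeR adjusted p = 0.00343). PLK1, the Polo-like kinase of spindle poles and kinetochores, changed by -0.52 on the log2 scale (standard error 0.12, edgeR adjusted p = 0.0171), AURKA, the Aurora kinase of spindle poles, by -0.31 on the log2 scale (standard error 0.06, edgeR adjusted p = 0.0117) and NEK2, a centrosome kinase, by -0.32 on the log2 scale (standard error 0.08, edgeR adjusted p = 0.031). CDC25C, the phosphatase that removes the inhibitory phosphates from CDK1, was the exception. Its levels were control levels of 17.2, 18.8 and 17.5 CPM and fluoxetine levels of 18.0, 18.2 and 16.7 CPM, and the groups overlapped. The log2 fold change of CDC25C was -0.02 (standard error 0.10, edgeR adjusted p = 0.946), with a 95% confidence interval of -0.24 to 0.21, and it crossed 0 with library size only, at equal depth and with length and GC trends removed. CDC25C shares 293 exon bases with FAM53C on the other strand, whose log2 fold change was 0.15 (edgeR adjusted p = 0.361), so its count is uncertain if the counting did not use strand. CCNB3, a B-type cyclin mostly known from the germline, had 1.95, 2.71 and 2.67 CPM in the control libraries and 2.55, 3.51 and 3.49 CPM in the fluoxetine libraries, and its log2 fold change of 0.38 (standard error 0.22, edgeR adjusted p = 0.282) did not pass the test.

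Of the chromosomal passenger complex, which corrects faulty attachments and later guides cytokinesis, the kinase AURKB and the survivin gene BIRC5 fell. BIRC5 (ENSG00000089685, chromosome 17, 78214186 to 78225636, plus strand) had 204, 205 and 184 CPM in control against 129, 145 and 128 CPM with fluoxetine. That is a log2 fold change of -0.56 (standard error 0.08, edgeR adjusted p = 0.0018), with no overlap between the groups. AURKB stood at control levels of 94.3, 85.9 and 85.3 CPM and fluoxetine levels of 62.8, 65.7 and 58.8 CPM, again without overlap, and its log2 fold change was -0.50 (standard error 0.08, edgeR adjusted p = 0.00343). The scaffold subunits were not called. CDCA8, which encodes borealin, had 66.0, 73.5 and 69.8 CPM in the control libraries and 51.2, 62.2 and 60.0 CPM in the fluoxetine libraries, all lower than in control, with a log2 fold change of -0.27 (standard error 0.09, edgeR adjusted p = 0.0831). INCENP had 48.0, 61.3 and 56.0 CPM in control against 56.9, 47.3 and 53.5 CPM with fluoxetine, which overlap, and a log2 fold change of -0.07 (standard error 0.11, edgeR adjusted p = 0.714). Survivin and Aurora B thus passed the test and the other subunits of the complex did not, but the difference between the subunits was not tested. AURKC, the third Aurora kinase, had 0 to 4 counts per library and was not tested.

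At the kinetochore, 3 of 6 members were called lower, and these 3 are subunits of a single complex. NDC80, NUF2 and SPC25 belong to the NDC80 complex, which holds the end of a microtubule. NDC80 (ENSG00000080986, chromosome 18, 2571511 to 2616635, plus strand) had control levels of 49.6, 43.0 and 48.1 CPM and fluoxetine levels of 32.1, 39.5 and 32.8 CPM. The highest fluoxetine library, replicate 2, stayed below the lowest control library, and the log2 fold change was -0.43 (standard error 0.11, edgeR adjusted p = 0.0253). SPC25 had 43.5, 38.6 and 41.2 CPM in the control libraries and 33.1, 32.6 and 31.2 CPM in the fluoxetine libraries and a log2 fold change of -0.35 (standard error 0.09, edgeR adjusted p = 0.0294). NUF2 changed by -0.28 on the log2 scale (standard error 0.08, edgeR adjusted p = 0.0487), just inside the threshold. SPC24, the remaining subunit, is in the list of other kinetochore genes and was not called. Its log2 fold change of -0.42 (standard error 0.13, edgeR adjusted p = 0.0607) was close to that of NDC80 but more variable. CENPA, the histone variant that marks centromeres, had 17.5, 15.9 and 17.8 CPM in control against 15.1, 16.9 and 14.8 CPM with fluoxetine. These values overlap, at a log2 fold change of -0.13 (standard error 0.11, edgeR adjusted p = 0.486). CENPA shares 138 exon bases with SLC35F6 on the same strand, which was higher with fluoxetine (log2 fold change 0.36, edgeR adjusted p = 0.0246) but was called in only 2 of 6 fits that left out 1 library (edgeR adjusted p of up to 0.11, without control replicate 2), and the part of those reads was not tested. CENPE, a kinetochore motor, had control levels of 86.5, 98.6 and 121 CPM and fluoxetine levels of 102, 81.8 and 107 CPM, and CENPF, a large kinetochore and nuclear matrix protein, had 361, 401 and 459.7 CPM in the control libraries and 412, 333 and 461 CPM in the fluoxetine libraries. In both genes control replicate 3 was the highest control and fluoxetine replicate 2 the lowest of all libraries. The log2 fold changes were -0.07 (standard error 0.13, edgeR adjusted p = 0.762) and a log2 fold change of -0.02 (standard error 0.12, edgeR adjusted p = 0.949), and both turned slightly positive when control replicate 3 or fluoxetine replicate 2 was left out.

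In the spindle checkpoint, 1 of 5 members was called lower. MAD2L1 (ENSG00000164109, chromosome 4, 120055608 to 120067074, minus strand) encodes MAD2, which captures CDC20. It had 99.4, 94.4 and 101 CPM in control against 65.9, 75.4 and 67.9 CPM with fluoxetine, without overlap. The log2 fold change of MAD2L1 was -0.49 (standard error 0.08, edgeR adjusted p = 0.00343). BUB1, a checkpoint kinase, had control levels of 189, 199.6 and 228 CPM and fluoxetine levels of 174, 164 and 178 CPM, and BUB3, its binding partner, had 290.1, 288 and 296 CPM in the control libraries and 251, 275 and 255 CPM in the fluoxetine libraries. In both genes the fluoxetine libraries were all lower. Their log2 fold changes were -0.26 (standard error 0.08, edgeR adjusted p = 0.0677) and a log2 fold change of -0.16 (standard error 0.07, edgeR adjusted p = 0.137). BUB1B, which encodes BUBR1, had 132, 138 and 171 CPM in control against 119.5, 111 and 132 CPM with fluoxetine, where only fluoxetine replicate 3 reached into the control range, and a log2 fold change of -0.28 (standard error 0.11, edgeR adjusted p = 0.109). TTK, the kinase that recruits the other checkpoint proteins, had control levels of 60.0, 61.4 and 71.5 CPM and fluoxetine levels of 65.6, 56.0 and 62.6 CPM. The groups overlap, and the log2 fold change was -0.07 (standard error 0.10, edgeR adjusted p = 0.682), with an interval of -0.28 to 0.15.

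Of the anaphase genes, 3 of 4 were lower, among them CDC20 and UBE2C, which had the largest falls of all 38 members. CDC20 activates the anaphase promoting complex and is the protein that the checkpoint restrains. CDC20 (ENSG00000117399, chromosome 1, 43358955 to 43363203, plus strand) had 184, 184 and 145 CPM in the control libraries and 89.5, 102 and 87.9 CPM in the fluoxetine libraries. The highest fluoxetine library lay well below the lowest control library, which was replicate 3. The log2 fold change of CDC20 was -0.88 (standard error 0.11, edgeR adjusted p = 0.000674), with a 95% confidence interval of -1.11 to -0.64, and it ranked 140 of 15646 genes by p. PTTG1 encodes securin, the inhibitor of separase. It had 219, 179 and 170.2 CPM in control against 129, 145 and 124 CPM with fluoxetine, and changed by -0.52 on the log2 scale (standard error 0.10, edgeR adjusted p = 0.0103). UBE2C, the ubiquitin-conjugating enzyme of the anaphase promoting complex, fell by 0.64 on the log2 scale (standard error 0.14, edgeR adjusted p = 0.016), with control levels of 121, 104 and 79.3 CPM and fluoxetine levels of 66.1, 71.5 and 57.4 CPM. ESPL1 encodes separase itself, the protease that cuts cohesin. With 79.1, 90.5 and 86.2 CPM in the control libraries and 77.5, 73.0 and 81.6 CPM in the fluoxetine libraries its groups overlapped, and its log2 fold change was -0.14 (standard error 0.08, edgeR adjusted p = 0.3). PTTG2, a copy of PTTG1, had 0 to 2 counts per library. Control replicate 3 was the lowest control library in 6 of the 38 members, namely CDC20, UBE2C, PTTG1, PLK1, BIRC5 and AURKB.

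Of the spindle motors and assembly factors, 3 of 6 were lower. TPX2 (ENSG00000088325, chromosome 20, 31739271 to 31801805, plus strand), the activator of Aurora A on spindle microtubules, had 403, 379 and 391 CPM in control against 295, 289 and 322 CPM with fluoxetine. The groups were apart, with a log2 fold change of -0.37 (standard error 0.07, edgeR adjusted p = 0.00756). KIF2C, a kinesin that takes microtubules apart at centromeres, had control levels of 75.8, 74.8 and 76.6 CPM and fluoxetine levels of 61.1, 62.3 and 61.7 CPM, with a very small spread. It changed by -0.30 on the log2 scale (standard error 0.07, edgeR adjusted p = 0.023). DLGAP5, a protein that stabilizes kinetochore fibers, changed by -0.36 on the log2 scale (standard error 0.09, edgeR adjusted p = 0.023). HMMR, a spindle pole protein, had 163, 153 and 168 CPM in the control libraries and 147, 135 and 138 CPM in the fluoxetine libraries, all lower with fluoxetine, and a log2 fold change of -0.20 (standard error 0.07, edgeR adjusted p = 0.0899). KIF11, the motor that pushes the spindle poles apart, had 181, 204 and 236 CPM in control against 187, 179 and 174 CPM with fluoxetine. Only its fluoxetine replicate 1 exceeded a control library, and the log2 fold change was -0.20 (standard error 0.09, edgeR adjusted p = 0.194). ASPM, a spindle pole protein of unusually large size, was the single member with a positive value. It had control levels of 153, 181 and 219.9 CPM and fluoxetine levels of 212, 166 and 215 CPM, with wide spread in both groups, and a log2 fold change of 0.10 (standard error 0.14, edgeR adjusted p = 0.664). Its sign changed without control replicate 1 and with length and GC trends removed.

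In the midzone and cytokinesis group, 3 of 4 were lower. KIF20A (ENSG00000112984, chromosome 5, 138178719 to 138187715, plus strand) encodes a kinesin of the central spindle and had 148, 158 and 169 CPM in the control libraries and 115, 118 and 126 CPM in the fluoxetine libraries. It changed by -0.41 on the log2 scale (standard error 0.08, edgeR adjusted p = 0.00756). KIF20A shares 68 exon bases with CDC23 and 132 with BRD8, both on the other strand, and these had log2 fold changes of -0.07 and -0.21 (edgeR adjusted p = 0.601 and 0.104). PRC1, which bundles the midzone microtubules, had 204, 225 and 232 CPM in control against 175, 172 and 184 CPM with fluoxetine and a log2 fold change of -0.32 (standard error 0.07, edgeR adjusted p = 0.0199). KIF23, the kinesin of the centralspindlin complex, changed by -0.30 on the log2 scale (standard error 0.07, edgeR adjusted p = 0.0199). ANLN, a scaffold of the contractile ring, had control levels of 352, 384 and 445 CPM and fluoxetine levels of 362, 337 and 365 CPM. Its groups overlapped and its log2 fold change was -0.15 (standard error 0.09, edgeR adjusted p = 0.306).

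Neither of the chromosome proteins was called. TOP2A, the topoisomerase that untangles sister chromatids, was the most abundant member by CPM. It had 524, 561 and 627 CPM in the control libraries and 504, 441 and 518 CPM in the fluoxetine libraries, all lower with fluoxetine, and a log2 fold change of -0.23 (standard error 0.09, edgeR adjusted p = 0.12). TOP2B, its paralog that is not tied to division, gave a log2 fold change of 0.15 (standard error 0.08, edgeR adjusted p = 0.247). MKI67 encodes Ki-67, the widely used proliferation marker. It had 439, 494 and 564 CPM in control against 481, 372 and 567 CPM with fluoxetine, with the highest and the lowest library both in the fluoxetine group. The log2 fold change of MKI67 was -0.08 (standard error 0.14, edgeR adjusted p = 0.758) with an interval of -0.39 to 0.23.

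The plot of levels by library shows the clear members beside those that overlap.

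**Figure D2:**
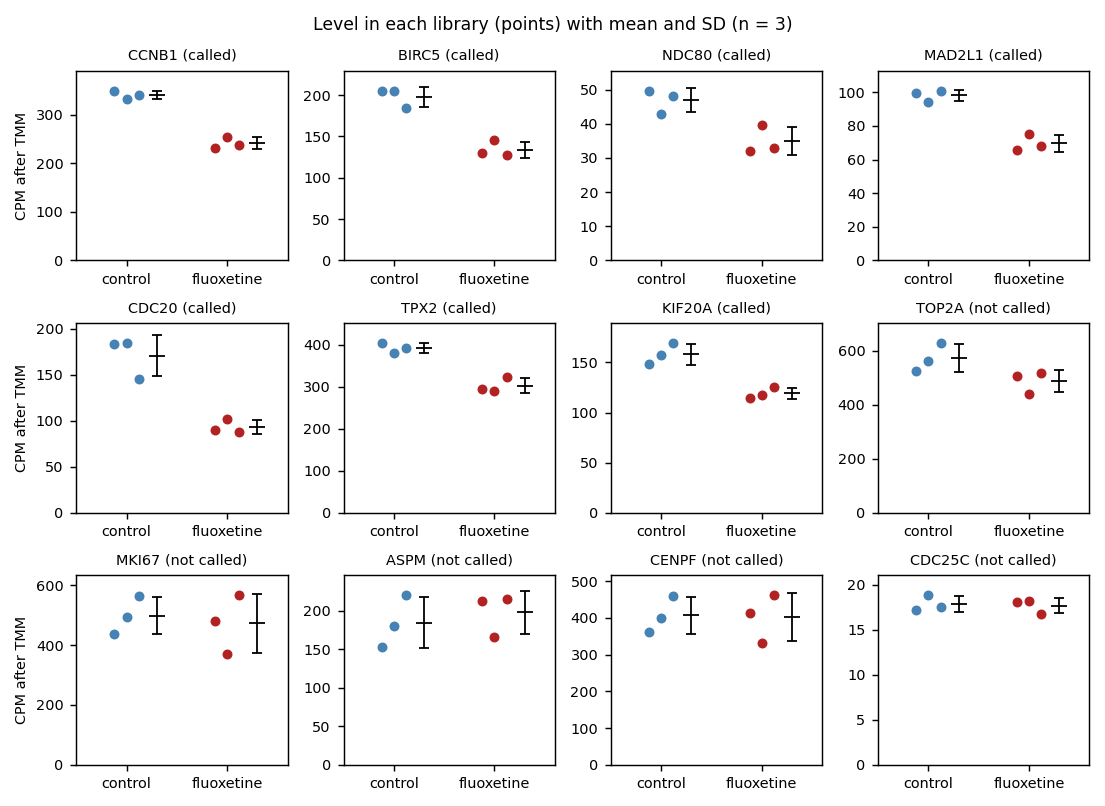
Level in CPM after TMM scaling (vertical axis from 0) in each control (blue) and fluoxetine (red) library, with the mean and SD of 3 libraries in black, for the member with the smallest p in each role and for MKI67, ASPM, CENPF and CDC25C. In the 7 called genes and in TOP2A the red points lie below the blue ones, while in MKI67, ASPM, CENPF and CDC25C they overlap.

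Compared per exon length, the members covered a wide range in control cells. CCNB1 was the most abundant at 134 CPM per kb of exon, followed by TPX2 at 108, PTTG1 at 94.1 and AURKA at 92.0. CDC25C was the least abundant at 5.35 CPM per kb, after CENPA at 8.61. By CPM, the members lay at a median of the 90.9th percentile of the tested genes. The files annotate all 38 with a Gene Ontology process that names cell cycle, mitosis, division, spindle or segregation, and 13 of them with the KEGG cell cycle pathway.

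The differences among members moved with transcript length. Length was taken as that of the longest annotated transcript in GENCODE release 29. Of the 19 shorter members 15 were called lower, with a median log2 fold change of -0.36, and of the 19 longer ones 6 were, with a median of -0.20. Across the 38 genes, Pearson's r between log length and log2 fold change was 0.62 and Spearman's rho 0.57, a description over genes that share the same 6 libraries. GC content gave a rho of -0.31. Across the 15600 tested genes with a known length, the rho of length with the fold change was 0.20. The median log2 fold change was 0.02 in the shortest quintile of all genes and 0.15 in the longest quintile. These values count every row, including tested rows whose repeated names carry identical counts (997 over the whole table). Their part in the length trend of all genes was not tested. The shortest quintile was mixed. In finer bins the median was 0.13 at a log2 length of 6.67, -0.11 at 9.91 and 10.46, and 0.21 at 13.44. The members run from 914 bases (UBE2C) to 12678 bases (MKI67), and over that range the trend of all genes was wider than the quintiles show.

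Libraries also differed in this way within a group. Relative to the control mean, the longest quintile of all genes stood at a median log2 difference of -0.09, -0.01 and 0.11 in control replicates 1, 2 and 3, and at 0.18, 0.05 and 0.22 in the fluoxetine replicates. The longer members followed the same order, with -0.12, -0.02 and 0.14 in control and -0.18, -0.31 and -0.15 with fluoxetine. The shorter members had 0.03, -0.04 and -0.00 in control and -0.45, -0.33 and -0.39 with fluoxetine. Control replicate 3 was the highest control library for 21 of the 38 members, and fluoxetine replicate 2 the lowest of all 6 libraries for 14.

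**Figure D3:**
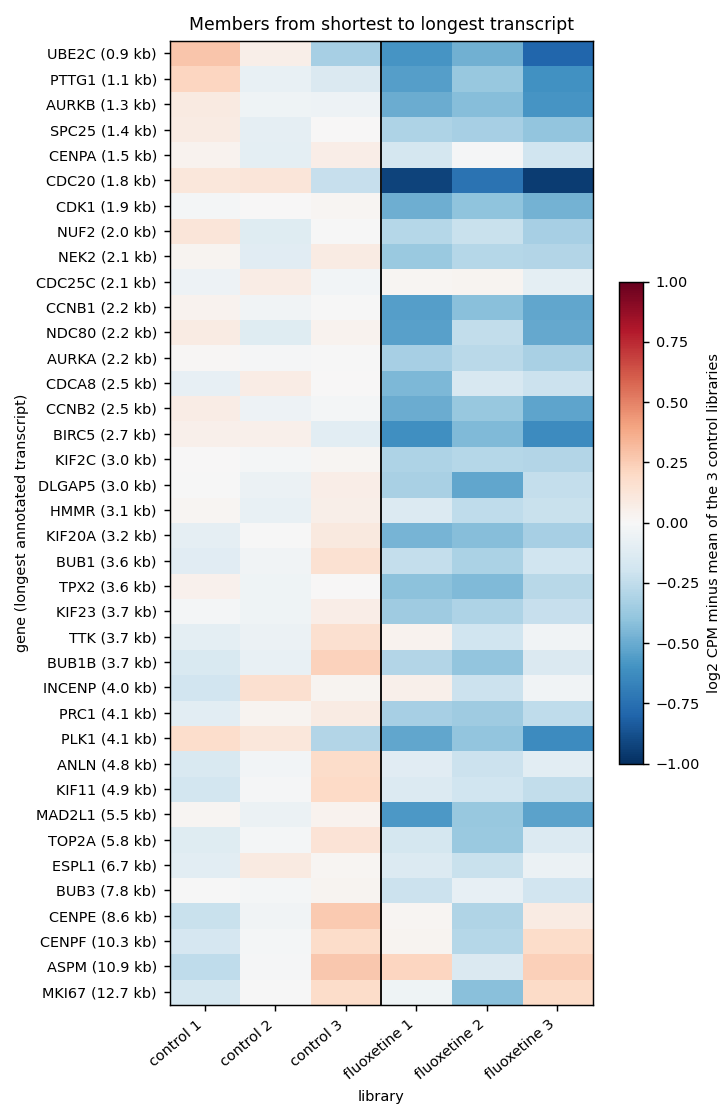
Log2 CPM of each member (rows, from the shortest to the longest transcript, length in kb) in each library (columns) minus the mean of the 3 control libraries; blue is lower and red higher. The fluoxetine columns are blue for most short genes, and the 4 longest genes, CENPE, CENPF, ASPM and MKI67, vary within both groups.

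When a smooth trend of length and GC content was removed from each library, an alternative added after seeing the data, 30 of the 38 members were called lower, against a background of 10.7%, and 0 higher. All 21 members called before were among the 30. The 9 additional ones were CENPE, CENPF, BUB1, BUB1B, BUB3, KIF11, HMMR, ANLN and TOP2A. TOP2A then changed by -0.39 (edgeR adjusted p = 0.000887), CENPF by -0.25 (adjusted p = 0.0143) and CENPE by -0.30 (adjusted p = 0.0128). MKI67 had -0.28 (adjusted p = 0.0625) and ASPM -0.16 (adjusted p = 0.0905), both still above the threshold. The change of CDC20 was -0.74 and remained the largest of the members. The median over the members moved little, from -0.30 to -0.33. CDC25C, CDCA8, INCENP, CENPA, TTK and ESPL1 were called in neither fit. Whether the length trend between libraries arises in the cells or in the preparation of RNA and libraries was not tested.

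**Figure D4:**
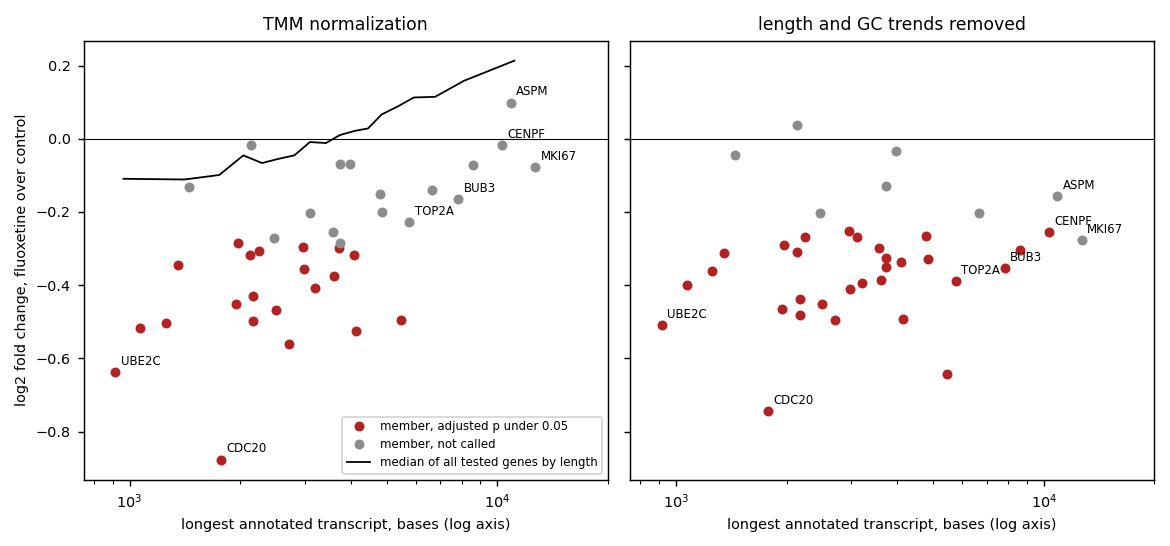
Log2 fold change of fluoxetine over control (vertical) against the longest annotated transcript in bases (log axis) for the 38 members, with TMM normalization (left) and with length and GC trends removed from each library (right); red marks an adjusted p under 0.05 and the black line the median of all tested genes by length. On the left the long genes ASPM, CENPF and MKI67 lie near 0, and on the right they lie between -0.28 and -0.16.

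The other genes of mitosis were read from 6 further lists. Of 109 genes 108 were tested, 27 were lower (25%, beside 5.32% of all tested genes) and 2 were higher (beside 7.76%), with a median log2 fold change of -0.18. The count lower was 9 without fluoxetine replicate 1, 12 without fluoxetine replicate 3, 15 without control replicate 2 and 42 without control replicate 3, where 1.01%, 2.01%, 2.75% and 12.7% of all genes were called lower. It was 54 with length and GC trends removed, beside 10.7%. Among kinetochore and inner centromere genes, 8 of 32 were lower and 0 higher. ZWINT, which joins the checkpoint to the kinetochore, had control levels of 194, 195 and 198 CPM and fluoxetine levels of 137, 139 and 126 CPM. This gap is wide beside the spread, at a log2 fold change of -0.55 (standard error 0.07, edgeR adjusted p = 0.000936). CENPH, an inner kinetochore subunit, changed by -0.52 on the log2 scale (standard error 0.10, edgeR adjusted p = 0.00749). Of cohesin and condensin, 3 of 17 were lower, led by CDCA5, which encodes sororin and protects cohesin (log2 fold change -0.45, edgeR adjusted p = 0.00487), and the condensin subunit NCAPH (log2 fold change -0.44, edgeR adjusted p = 0.00562). Of the anaphase promoting complex and its regulators, 2 of 17 were lower, the subunit CDC26 (log2 fold change -0.47, edgeR adjusted p = 0.0353) and the inhibitor FBXO5, also known as EMI1 (log2 fold change -0.34, edgeR adjusted p = 0.0363). With 1 library left out, CDC26 was called in 2 of 6 fits, with an edgeR adjusted p of up to 0.139 (without fluoxetine replicate 1), and FBXO5 in 3 of 6, with one of up to 0.153 in the same fit. Of the further spindle and midzone factors, 7 of 22 were lower, led by KNSTRN (log2 fold change -0.44, edgeR adjusted p = 0.00378) and SPAG5 (log2 fold change -0.40, edgeR adjusted p = 0.00517), which encode kinetochore and spindle proteins that work together.

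Among 9 entry regulators 3 were lower (33.3%, beside 5.32% of all tested genes) and 1 was higher (beside 7.76%). LMNB1, a lamin of the nuclear envelope, changed by -0.41 on the log2 scale (standard error 0.07, edgeR adjusted p = 0.00477) and CDC25A, a CDK phosphatase that also acts before S phase, by -0.48 on the log2 scale (standard error 0.09, edgeR adjusted p = 0.00647). CDC25B, the phosphatase thought to start CDK1 activation at centrosomes, rose. It had 305, 305 and 266 CPM in the control libraries and 364, 397 and 352 CPM in the fluoxetine libraries, with no overlap, and a log2 fold change of 0.35 (standard error 0.08, edgeR adjusted p = 0.0191). The call of CDC25B was lost in 4 of 6 fits that left out 1 library. Thus the 3 CDC25 genes gave 3 different values, with CDC25A at -0.48, CDC25B at 0.35 and CDC25C at -0.02, and the differences between them were not tested.

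Of 11 tested regulators of this transcription program, 4 were lower (36.4%, beside 5.32% of all tested genes) and 1 higher (beside 7.76%). E2F1, an activator of S phase genes, changed by -0.52 on the log2 scale (standard error 0.09, edgeR adjusted p = 0.0064), and MYBL2, which joins the complex at the CHR in dividing cells, by -0.42 on the log2 scale (standard error 0.09, edgeR adjusted p = 0.0128). RBL2, the pocket protein p130 of the repressive DREAM complex, was higher, with 23.2, 27.5 and 30.6 CPM in control against 36.9, 33.2 and 38.0 CPM with fluoxetine. Its log2 fold change was 0.41 (standard error 0.12, edgeR adjusted p = 0.0433), and the call held in 1 of 6 fits that left out 1 library. CDKN1A and CDKN1B encode the CDK inhibitors p21 and p27, which hold cells in G1. CDKN1A had control levels of 205, 219 and 182 CPM and fluoxetine levels of 231, 258 and 209 CPM, which overlap, and a log2 fold change of 0.20 (standard error 0.10, edgeR adjusted p = 0.192). CDKN1B had 23.6, 23.2 and 21.3 CPM in the control libraries and 26.3, 28.5 and 24.5 CPM in the fluoxetine libraries, all higher with fluoxetine, and a log2 fold change of 0.22 (standard error 0.10, edgeR adjusted p = 0.183).

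For comparison with the preceding phase of the cycle, 21 S phase genes were read from the same fit. All 21 were below 0, beside 45.8% of all tested genes, and 13 were called lower (61.9%, beside 5.32%). Their median log2 fold change was -0.40, against -0.30 for the members. UHRF1, which maintains DNA methylation behind the fork, changed by -0.54 on the log2 scale (standard error 0.08, edgeR adjusted p = 0.00186) and CDC45, a subunit of the replicative helicase, by -0.53 on the log2 scale (standard error 0.08, edgeR adjusted p = 0.00239). The distribution plot sets the lists side by side, and whether the lists differ was not tested.

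**Figure D5:**
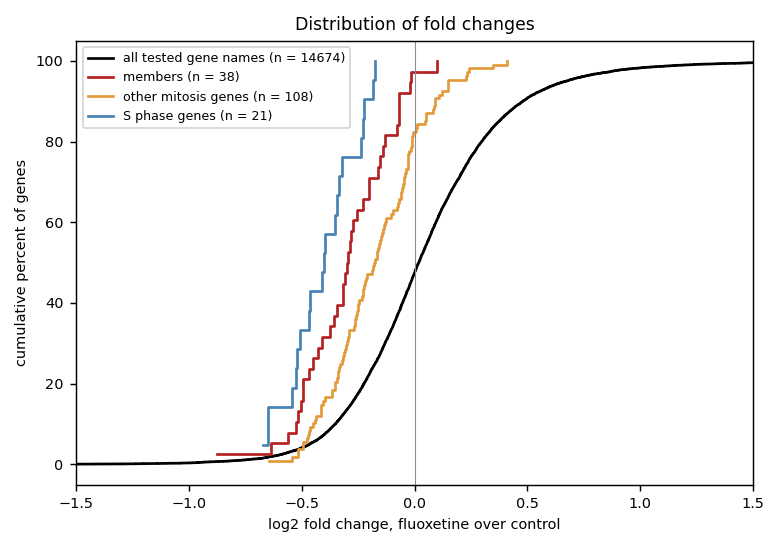
Cumulative percent of genes (vertical) by log2 fold change of fluoxetine over control (horizontal) for all tested gene names, the 38 members, 108 other mitosis genes and 21 S phase genes. The curves of the 3 lists lie to the left of that of all genes, with medians of -0.30, -0.18 and -0.40.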

How the data were processed

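RNA of 3 control and 3 fluoxetine-treated H460 samples was sequenced as paired-end reads. The authors deposited raw counts of reads per gene and library, not normalized, for 31762 rows. The submitters' processing notes name fastp 0.20.0, HISAT2 2.1.0, HTSeq 0.10.0 and DESeq2 1.18.1. Whether counting used strand is not given in the sources used here. Coordinates are those of GRCh38, with 31635 rows in GENCODE release 29. The authors' columns of their own comparison (fold change and raw and adjusted p-values) were not used. Rows with the same gene name hold identical counts (0.743% to 1.06% of a library's total would be removed by keeping 1 row), so the counts look to have been made per name.

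In R 4.3.3, edgeR 4.0.16 was applied to these counts (filterByExpr, TMM, glmQLFit and glmQLFTest, no covariate), adjusted by Benjamini-Hochberg over all 15646 tested genes, and called at an adjusted p under 0.05 at any fold change. Fold changes are relative to TMM scaling. Members and lists were chosen with earlier results of these data known. Values by library are given for the 2 members of each role with the smallest p and for each member not called, and from each further list the 2 smallest p and each called gene that was higher are named. Alternatives were DESeq2 1.42.0, limma-voom (limma 3.58.1), RLE, library size only, 2 count filters, a replicate block, thinning to 16157507 counts, leaving out each library, and, added after seeing the data, removal of length and GC trends and 1 row per gene name. The scripts were tested on simulated counts. Pairs of libraries differed by more than sampling noise (chi-square per degree of freedom of at least 3.69).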

Additional observations from a re-analysis of the deposited data

How the results depend on the processing

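Of the 21 members called lower, 8 (CCNB1, CDK1, CCNB2, BIRC5, AURKB, MAD2L1, CDC20 and TPX2) were called at an adjusted p under 0.05 under every alternative run, and 20 under each one that kept all libraries, NUF2 being the exception (limma-voom and library size only). The count was 9 at an adjusted p under 0.01 (1.30% of all tested genes), 0 with a fold change of at least 2 (0.147%), and 8 to 22 when 1 library was left out (1.01% to 12.7%). The median log2 fold change was -0.33 without the filter on low counts, and -0.36 to -0.31 with 1 library left out. Over the whole table, 833 genes were lower and 1214 higher. Genes called across the whole table, lower, numbered 1516 without the filter, 1667 with length and GC trends removed and 163 to 2006 with 1 library left out, and genes called across the whole table, higher, 409 to 1627. Other mitosis genes called lower numbered 54 with the trends removed (10.7% of all tested genes) and 9 to 42 with 1 library left out (1.01% to 12.7%), and those called higher 1 at equal depth and 0 to 5 with 1 library left out. The same-numbered libraries paired only in part, with correlations of their deviations of -0.02, 0.20 and 0.53 for replicates 1, 2 and 3. The value of replicate 3 was the highest of all pairs, but control replicate 1 correlated best with fluoxetine replicate 2 (0.44). With the replicate block, 25 members, 1787 genes lower (11.4%), 2231 higher and 44 other mitosis genes lower were called. Signs changed only for members that were not called. The log2 fold change of CDC25C was 0.0059 with library size only, 0.0036 at equal depth and 0.0364 with trends removed, CENPF 0.0037 with library size only and ASPM -0.157 with trends removed. With 1 library left out, CENPE ranged from -0.212 to 0.0377, CENPF from -0.153 to 0.0673, ASPM from -0.0538 to 0.212 and MKI67 from -0.252 to 0.0363. The cause was not tested. Summing rows of a repeated symbol was not run, since no member name repeats. At a median standard error of 0.09 over the members, a fold change as small as that of BUB3 (-0.16) did not pass.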

Other observations

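Tubulins, the building blocks of the spindle and of the microtubules of resting cells, were also lower for the most part. Of 11 tested tubulin genes, 7 were called lower (63.6%, beside 5.32% of all tested genes) and 1 higher (beside 7.76%). Their median log2 fold change was -0.36. TUBB, the most abundant of them by CPM, had 1069, 1045 and 999.5 CPM in control replicates 1, 2 and 3 and 742, 806 and 748.5 CPM in the fluoxetine replicates, and changed by -0.44 on the log2 scale (standard error 0.07, edgeR adjusted p = 0.00295). TUBA1B changed by -0.41 (standard error 0.07, edgeR adjusted p = 0.00319). TUBA1A went the other way, with 457, 463 and 417 CPM in control and 585, 629 and 604 CPM with fluoxetine, and rose by 0.44 on the log2 scale (standard error 0.07, edgeR adjusted p = 0.00331). These 3 tubulins were called at an adjusted p under 0.05 under every alternative run. Tubulin genes are close copies of each other, and how the counting treated reads that match several of them was not tested.
KRT18, one of the epithelial markers, fell by 0.72 on the log2 scale (edgeR adjusted p = 0.00162). The other tested epithelial markers were not called. KRT8 had a log2 fold change of -0.34 (edgeR adjusted p = 0.131), KRT19 of -0.15 (edgeR adjusted p = 0.322) and KRT7 of 0.12 (edgeR adjusted p = 0.84).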
